A study of Mus musculus with 48 samples.

Results

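Cholesterol synthesis was followed through 7 genes (Hmgcs1, Idi1, Fdft1, Sqle, Lss, Insig1 and Srebf2), chosen by name from the 53465 genes of a mouse RNA-seq count table as synthesis enzymes and regulators of the sterol regulatory element binding protein (SREBP) pathway. They were measured in enteroendocrine cells, the hormone-secreting cells of the gut epithelium, purified from duodenum, ileum and colon of mice 6 weeks after vertical sleeve gastrectomy or a sham operation. The study asked whether bariatric surgery alters these cells. There were 48 libraries from 17 mice, 16 from each region, with 4648651 to 17182463 counts per library (median 6713018).

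All animals were lean male C57BL6 mice that carried Neurod1-cre and a Cre-dependent EYFP reporter, so that cells with a history of Neurod1 expression were fluorescent, and all were about 20 weeks old at surgery. VSG mice (n = 6) had most of the stomach volume removed. S_al mice (n = 6) had a sham operation and ate ad libitum. They gave 5 libraries in each region, since mouse 17 gave duodenum only and mouse 24 only ileum and colon. S_wm mice (n = 5) had a sham operation and were fed so that their weight matched that of the VSG group. Each mouse was fasted overnight and given 3 g/kg glucose by gavage about 15 min before the tissue was taken. Duodenum meant the top 5 cm of the small intestine, ileum its bottom 15 cm, and colon the colon with the rectum. The reporter marks a lineage, so the sort held all enteroendocrine subtypes together. For all values below, fewer cells of a subtype and less RNA per cell cannot be told apart.

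Cells make cholesterol from acetyl-CoA through the mevalonate pathway. Hmgcs1 (HMG-CoA synthase 1) acts near the start, where HMG-CoA is made. Idi1 (isopentenyl diphosphate isomerase) acts midway, Fdft1 (squalene synthase) makes squalene, and Sqle (squalene epoxidase) and Lss (lanosterol synthase) turn it into the first sterol. Srebf2 encodes SREBP2, the transcription factor that switches these genes on. When sterols are plentiful, Insig1, itself an SREBP target, retains the SREBP escort protein Scap in the endoplasmic reticulum and so keeps SREBP2 inactive. Enterocytes of the small intestine also absorb cholesterol from food and bile, whereas the colon absorbs little. In GRCm38 coordinates, Hmgcs1 lies at chr13:119690379-119708260, Idi1 at chr13:8885501-8892451, Sqle at chr15:59315077-59331192, Lss at chr10:76531588-76557138, Insig1 at chr5:28071363-28078662 and Srebf2 at chr15:82147181-82205379, all on the plus strand, and Fdft1 at chr14:63145150-63179578 on the minus strand. The counts cover their annotated exons.

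Promoter sequences are shown because these genes are read as SREBP targets, and SREBPs bind sterol regulatory elements close to the start of transcription. RefSeq windows of 300 bases (250 before to 50 after the start, GRCm38.p6) matched 5 of the 7 genes. Those of Hmgcs1, Lss, Insig1 and Srebf2 are printed 5′ to 3′ on the plus strand, up to the more upstream of the RefSeq and GENCODE M21 starts. Capitals mark matches, on either strand, to TCACCCCAC (the core of a sterol regulatory element), its looser form TCACNCCAC, CCAAT (the NF-Y box), GGGCGG (the Sp1 box) and CACGTG (an E-box). The looser form includes every match of the strict one.
Hmgcs1 (chr13:119690101-119690350): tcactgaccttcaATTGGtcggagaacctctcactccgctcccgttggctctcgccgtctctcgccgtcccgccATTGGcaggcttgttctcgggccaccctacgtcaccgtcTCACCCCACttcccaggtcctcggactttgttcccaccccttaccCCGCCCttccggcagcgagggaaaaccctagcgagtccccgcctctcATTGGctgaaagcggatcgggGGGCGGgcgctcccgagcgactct
Lss (chr10:76531355-76531587): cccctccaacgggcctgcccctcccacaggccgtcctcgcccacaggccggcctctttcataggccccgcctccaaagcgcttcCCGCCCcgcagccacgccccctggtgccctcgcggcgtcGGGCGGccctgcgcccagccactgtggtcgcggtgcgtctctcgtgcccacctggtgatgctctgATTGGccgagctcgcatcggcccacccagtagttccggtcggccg
Insig1 (chr5:28071162-28071362): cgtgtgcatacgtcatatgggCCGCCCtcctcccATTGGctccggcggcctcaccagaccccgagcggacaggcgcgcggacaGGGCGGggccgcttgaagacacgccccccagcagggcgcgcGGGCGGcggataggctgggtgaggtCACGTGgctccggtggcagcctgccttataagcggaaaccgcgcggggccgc
Srebf2 (chr15:82147019-82147180): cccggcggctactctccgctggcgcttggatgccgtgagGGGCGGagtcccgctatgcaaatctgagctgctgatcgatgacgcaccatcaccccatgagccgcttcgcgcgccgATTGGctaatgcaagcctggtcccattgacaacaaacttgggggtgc

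Of the 5 windows, that of Hmgcs1 held TCACCCCAC, 137 bases before the RefSeq start, and no other held the strict or the looser form. Among all 32851 windows of this length, 0.551% held the strict form and 1.24% the looser form. All 5 windows held CCAAT and GGGCGG, which 37.4% and 35.7% of all windows held. CACGTG was found in the Insig1 window alone of the 5, and in 7.15% of all windows. These are letter matches and say nothing of whether a factor was bound.

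All 7 genes passed the filter on low counts, with 15126 genes, and levels are read counts normalised to library size (CPM). Set per kilobase of annotated exon, so that genes can be compared, Hmgcs1 and Srebf2 were the highest members in the duodenum, with ranges over libraries of 16.8 to 30.1 and 14.2 to 24.7 CPM per kb that overlapped. Sqle (median 10.5 CPM per kb), Fdft1 (8.24 CPM per kb) and Insig1 (6.76 CPM per kb) followed, each overlapping its neighbour in that order. Lss (1.23 CPM per kb) and Idi1 (0.267 CPM per kb) came last, and neither overlapped the gene above it. In the ileum the order was the same, but the ranges of Lss and Idi1 overlapped. In the colon Srebf2 came first at a median of 33.9 CPM per kb and Hmgcs1 second at 19.2 CPM per kb, followed closely by Fdft1 at 17.7 CPM per kb.

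**Figure D1:**
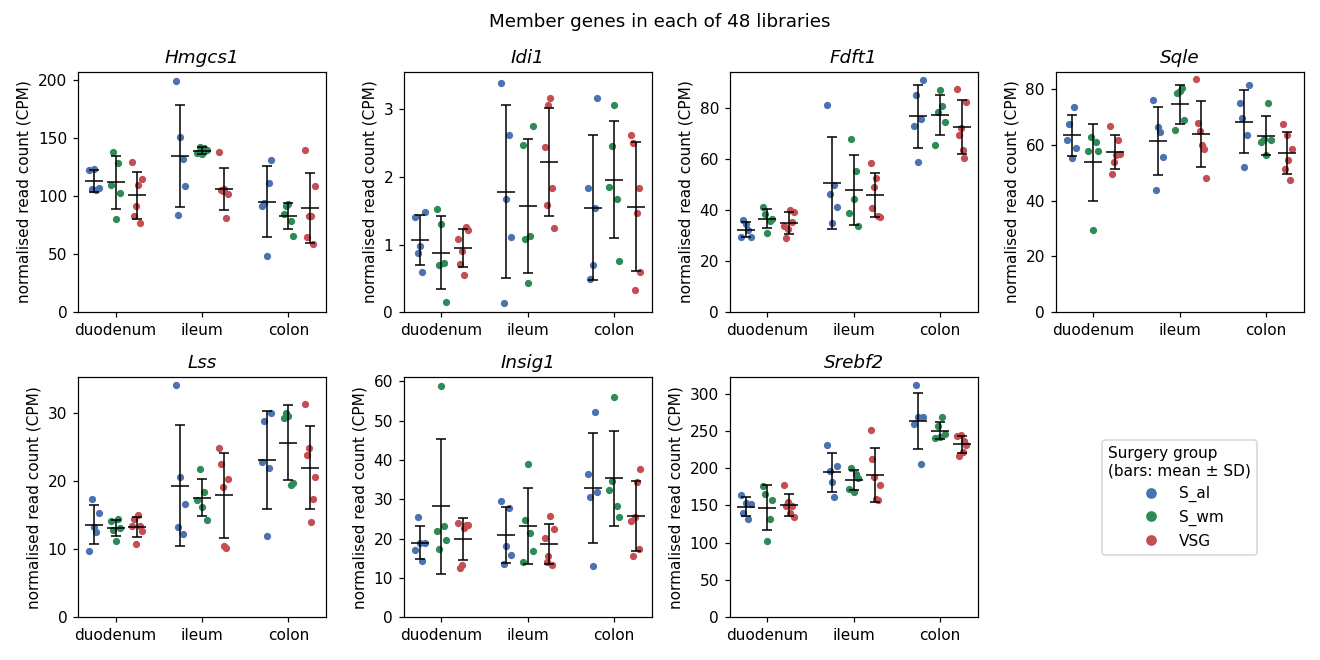
Normalised read count (CPM, linear axis from 0) of each member gene in all 48 libraries, grouped by region on the horizontal axis and coloured by surgery group. Points are libraries and bars show mean ± SD of 5 or 6 mice. Fdft1 and Srebf2 step up from duodenum to colon, whereas the surgery groups overlap within every region.

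Srebf2 and Fdft1 rose stepwise along the gut. Srebf2 was lowest at 102.0, with a median of 150.8 and a highest value of 177.6 CPM, in the 16 duodenal libraries. In the ileum the lowest, median and highest values were 156.9, 187.7 and 251.3 CPM, and in the colon 206.2, 243.8 and 311.6 CPM. Every colonic library exceeded every duodenal library, whereas ileum overlapped both. By edgeR's quasi-likelihood test with Benjamini-Hochberg adjustment over all tested genes, the log2 fold change was 0.35 ± 0.0697 (SE, adjusted p = 7e-05) from duodenum to ileum, 0.39 ± 0.0697 (adjusted p = 6.7e-06) from ileum to colon and 0.74 ± 0.0699 (adjusted p = 6.2e-13) from duodenum to colon.

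Fdft1, the enzyme that commits the pathway to sterols, ranged from 28.9 over a median of 34.8 to 41.2 CPM in the duodenum. Its lowest, median and highest values were 33.6, 45.2 and 81.1 CPM in the ileum and 58.9, 75.0 and 90.9 CPM in the colon. Again no colonic library overlapped a duodenal one, and ileum overlapped both. The log2 fold change was 0.48 ± 0.0942 (adjusted p = 6.3e-05) in ileum, and 1.13 ± 0.0945 (adjusted p = 1.3e-14) in colon, over duodenum, and 0.65 ± 0.0938 (adjusted p = 9.1e-08) in colon over ileum. Of all tested genes, 9.75% had no overlap between colon and duodenum. Fdft1 shares 774 exonic bases with Ctsb, a cathepsin gene on the opposite strand, and the sources used here do not state whether counting used strand. Ctsb, with 89599 counts in all libraries against 17798 of Fdft1, differed by a log2 fold change of -0.09 (adjusted p = 0.528) in ileum and 0.24 (adjusted p = 0.0346) in colon over duodenum. In colon over ileum Ctsb was at 0.32 (adjusted p = 0.00447). Of the 50-base windows of Fdft1 transcripts, 26.5% also occur in other genes, Ctsb and Gm6781. The part of such reads in the Fdft1 counts was not tested.

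Lss, the enzyme that forms lanosterol, took the same direction with more spread. Its duodenal libraries ran from 9.73 over a median of 13.3 to 17.4 CPM, its ileal libraries from 10.2 over 17.8 to 34.1 CPM, and its colonic libraries from 11.9 over 23.4 to 31.4 CPM. The 3 regions overlapped throughout. The log2 fold changes were 0.46 ± 0.136 (adjusted p = 0.00753) in ileum and 0.82 ± 0.136 (adjusted p = 1.3e-06) in colon over duodenum, and 0.36 ± 0.135 (adjusted p = 0.0238) in colon over ileum. Leaving out mouse 12 took the difference between ileum and duodenum for Lss to 0.32 (adjusted p = 0.0642). Colon over ileum did not pass without mouse 13, 16, 24 or 32 (adjusted p = 0.0831, 0.0511, 0.0518 and 0.0726). With library index (a barcode of each library, unevenly spread over regions) as a covariate no Lss comparison passed (adjusted p = 0.393, 0.102 and 0.225).

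Hmgcs1, at the head of the pathway, went the other way in the colon. Its lowest, median and highest values were 77.1, 108.3 and 138.4 CPM in the duodenum, 81.4, 134.3 and 199.8 CPM in the ileum, and 48.4, 88.4 and 139.7 CPM in the colon. Regions overlapped, with the highest single library in the ileum and the lowest in the colon. Expression fell by 0.50 on the log2 scale from ileum to colon (SE 0.114, adjusted p = 0.00023) and by 0.28 from duodenum to colon (SE 0.113, adjusted p = 0.0301). From duodenum to ileum the log2 fold change was 0.22 ± 0.113 (adjusted p = 0.137). The fall from duodenum to colon did not pass when mouse 19, 21, 25, 29 or 31 was left out (adjusted p up to 0.0672), nor with library index as a covariate (Hmgcs1 at -0.11, adjusted p = 0.796).

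Insig1, the sterol-dependent brake, was higher in the colon, although both calls were lost with library index as a covariate. It ran from 12.6 over a median of 20.9 to 58.7 CPM in the duodenum, from 13.2 over 19.3 to 38.9 CPM in the ileum and from 13.1 over 31.3 to 56.0 CPM in the colon. The ranges overlapped almost fully, and the highest value of every region came from mouse 27. The log2 fold change was 0.49 ± 0.177 (adjusted p = 0.0166) in colon over duodenum and 0.57 ± 0.179 (adjusted p = 0.00653) in colon over ileum. From duodenum to ileum it was -0.08 ± 0.178 (adjusted p = 0.769). With library index as a covariate Insig1 in colon over duodenum turned to -0.15 (adjusted p = 0.808) and in colon over ileum was 0.53 (adjusted p = 0.0518). With no filter on low counts colon over duodenum was 0.46 (adjusted p = 0.0634), and without the duodenal library of mouse 27 it was 0.66 (adjusted p = 0.00057).

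Sqle, which adds the epoxide to squalene, passed in no regional comparison. Its medians were 58.4, 66.0 and 62.1 CPM in duodenum, ileum and colon, and its lowest and highest values over all libraries were 29.5 and 83.5 CPM. The log2 fold changes were 0.19 ± 0.0853 (adjusted p = 0.0789, 95% interval 0.02 to 0.36) in ileum over duodenum, 0.11 (95% interval -0.06 to 0.28) in colon over duodenum and -0.08 (95% interval -0.25 to 0.09) in colon over ileum. Sqle in ileum over duodenum passed under 2 of 25 alternatives, at 0.23 without mouse 13 (adjusted p = 0.0381) and at 0.49 with library index as a covariate (adjusted p = 0.0497). Idi1 was barely counted, with 1 to 24 reads in a library and 10 or more in 23 of the 48. Its medians were 0.936, 1.75 and 1.75 CPM in duodenum, ileum and colon. It passed at a log2 fold change of 0.92 ± 0.330 (adjusted p = 0.0271) in ileum and 0.77 ± 0.331 (adjusted p = 0.0446) in colon over duodenum. These calls of Idi1 were fragile. The first was lost under 7 of 24 alternatives (adjusted p up to 0.616), among them leaving out mouse 12, 25 or 31, and the second under 16 of 24 (adjusted p up to 0.673), of which 12 left out 1 mouse. Neither passed with mouse as a replicate block (adjusted p = 0.0921 and 0.139). A share of 25.3% of the 50-base windows of Idi1 transcripts also occurs in other genes, mostly a pseudogene, so its counts are uncertain.

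**Figure D2:**
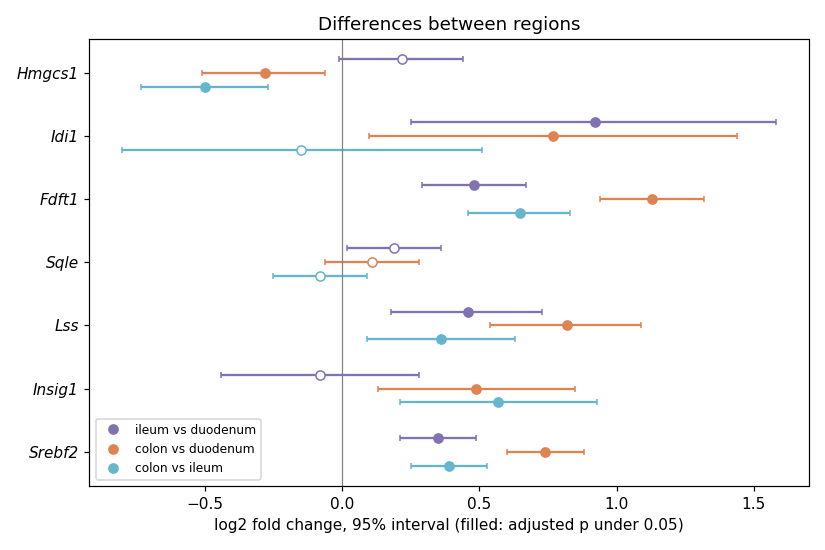
Log2 fold change (horizontal axis) of each member gene between regions, over the 48 libraries, with 95% intervals from the edgeR fit. Filled points have an adjusted p under 0.05. Fdft1, Lss and Srebf2 are filled and to the right of 0 in all 3 comparisons, while Hmgcs1 lies to the left of 0 in both comparisons with colon.

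In all, 4 of 7 members rose and none fell from duodenum to ileum, where 33.8% of all tested genes changed (17.2% higher, 16.6% lower). From duodenum to colon 5 rose and 1 fell, against a background of 55.0% (26.8% higher, 28.3% lower). From ileum to colon 4 rose and 1 fell, against 49.2% (23.8% higher, 25.4% lower). The median log2 fold change of the 7 members was 0.35, 0.74 and 0.36 in these 3 comparisons, and that of all tested genes was 0.0045, -0.0148 and -0.0106. These backgrounds were high, and no test set the members apart from other genes.

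Regions were unevenly spread over the library indices (D501 to D504), which limits these comparisons. All 12 libraries with D502 were duodenal, 11 with D504 were colonic, and none with D503 or D504 was duodenal. Colon and duodenum shared an index through D501 alone, which held 1 colonic library, that of mouse 12. The 1 ileal library with D504 also came from mouse 12, whose tissue labels are crossed with the sample codes, as described below. How far a fit with library index rests on these libraries was not tested. With library index as a covariate, 3, 2 and 3 members passed in the 3 comparisons in place of 4, 6 and 5, and Fdft1 and Srebf2 passed in each. Within D501 (7 ileal and 4 duodenal libraries) the mean log2 difference from duodenum to ileum was 0.61 for Fdft1 (exact two-sided permutation p = 0.00606) and 0.42 for Srebf2 (exact p = 0.0121). Within D503 (4 colonic and 8 ileal libraries) the difference from ileum to colon was 0.97 for Fdft1 (exact p = 0.00202) and 0.40 for Srebf2 (exact p = 0.00808). These 4 values come from 14 such tests, and the p-values are unadjusted. Hmgcs1 differed by 0.20 (exact p = 0.164) within D501 and -0.15 (exact p = 0.554) within D503. Insig1 differed by -0.47 (exact p = 0.218) within D501 and 0.58 (exact p = 0.0586) within D503. The 4 duodenal libraries with D501 were those of mice 12, 13, 27 and 32. Insig1 was at 58.7 CPM in mouse 27, against 17.1, 25.6 and 18.9 CPM in mice 12, 13 and 32. Srebf2 was at 102.0 CPM in mouse 27, against 164.6, 139.6 and 151.7 CPM. The part of this library in the differences within D501 was not tested.

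Other cell types' markers moved with region too. The summed level of 10 enteroendocrine markers, such as Neurod1 and Chga, ranged from 12186.3 to 75025.1 CPM in duodenum, 34906.7 to 84636.9 CPM in ileum and 29557.5 to 99882.4 CPM in colon, and from duodenum to colon 1 of these markers rose and 7 fell. All 8 colonocyte markers and 5 of 8 goblet markers were higher in colon than in duodenum, and 10 of 10 enterocyte, 6 of 7 Paneth and 7 of 10 crypt and proliferation markers were lower. From duodenum to ileum 7 of 7 Paneth and 7 of 10 crypt and proliferation markers rose and 0 fell, and 6 of 10 enteroendocrine markers fell and 0 rose. From ileum to colon 10 of 10 crypt and proliferation, 10 of 10 enterocyte, 7 of 7 Paneth and 7 of 10 enteroendocrine markers fell. In the same comparison 7 of 8 colonocyte and 7 of 8 goblet markers rose. The enterocyte sum was 6477.1 to 52427.4 CPM in duodenum and 665.9 to 1177.3 CPM in colon, and the colonocyte sum was 63.7 to 590.8 and 882.8 to 3328.8 CPM. No marker was at 0 in a whole region, and the part of these cells in the members' differences was not tested. The duodenal library of mouse 27 (S_wm) stood apart, with the lowest enteroendocrine sum and the highest duodenal enterocyte, Paneth (4020.7 CPM) and immune (1864.7 CPM) sums. The ileal library of mouse 12 (S_al) had the lowest ileal enteroendocrine sum (34906.7 CPM) and the highest ileal goblet (9403.7 CPM) and colonocyte (740.7 CPM) sums. For this mouse the tissue labels of the ileal and colonic libraries are crossed with the sample codes. By markers of region the tissue labels hold, since the colonic marker Hoxb13 was at 58.3 CPM in the library labelled colon and at 0 in that labelled ileum, and the ileal marker Fabp6 at 0.487 and 848.2 CPM. Without both libraries 3, 5 and 5 members passed, and without the duodenal library of mouse 27, 4, 6 and 5.

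Across the whole route to cholesterol the regional differences were not uniform. Of 21 sterol synthesis enzymes, 12 rose and 2 fell from duodenum to ileum (median log2 fold change 0.35). From duodenum to colon 11 rose and 3 fell (median 0.35), and from ileum to colon 2 rose and 4 fell (median -0.08). Of all tested genes, 17.2% rose and 16.6% fell from duodenum to ileum, and 26.8% and 28.3% did from duodenum to colon. From ileum to colon the shares were 23.8% and 25.4%, and no test set the enzymes apart. Mvd, the decarboxylase that yields the first isoprene unit, rose most, by 0.93 ± 0.169 (adjusted p = 1.8e-05) in ileum and 1.21 ± 0.169 (adjusted p = 2.5e-08) in colon over duodenum. Fdps, which makes farnesyl diphosphate, was 0.72 ± 0.246 (adjusted p = 0.0199) higher in ileum than in duodenum. Its means were low, at 2.60 and 1.62 CPM. Of the 50-base windows of Fdps transcripts, 26.2% also occur in other genes, so its counts are uncertain. Lbr, a nuclear envelope protein with sterol reductase activity, was 0.73 lower on the log2 scale in colon than in ileum (-0.73 ± 0.118, adjusted p = 8.7e-07). Without the 5 members on this list, 9 of 16 enzymes rose and 2 fell in ileum over duodenum, and 8 rose and 2 fell in colon over duodenum. Without mouse 12, 7 enzymes rather than 12 rose from duodenum to ileum, and 4 rather than 2 rose from ileum to colon. With library index as a covariate, 2 enzymes rose and 0 fell in ileum, and 3 rose and 2 fell in colon, over duodenum.

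**Figure D3:**
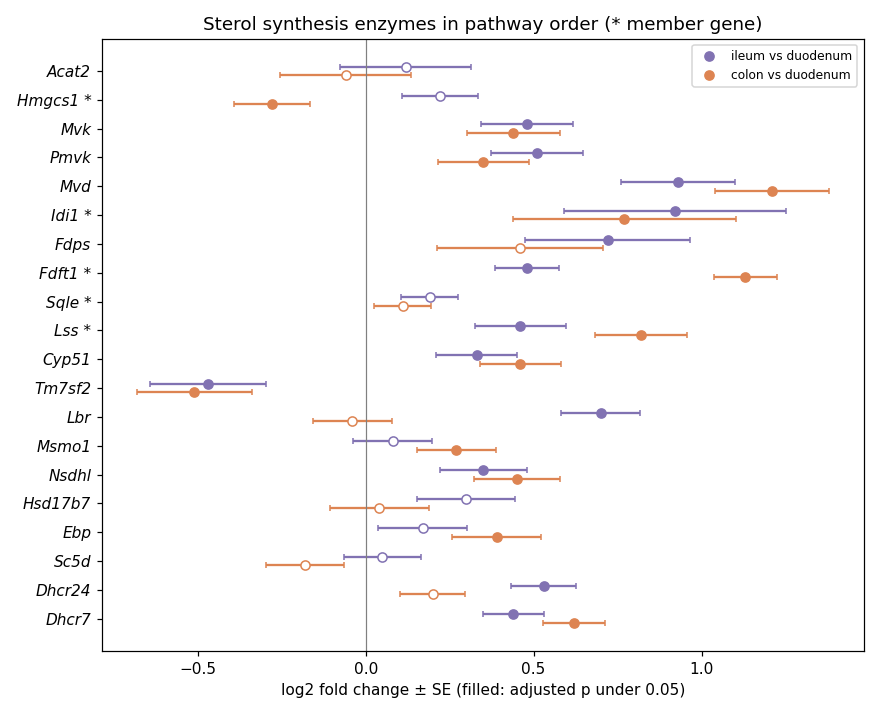
Log2 fold change (horizontal axis) of the sterol synthesis enzymes reported here in ileum and in colon over duodenum, listed from the first step of the pathway at the top to the last at the bottom, with bars of ± SE. Filled points have an adjusted p under 0.05. Most enzymes lie to the right of 0, with Mvd farthest at 0.93 and 1.21, whereas Hmgcs1 lies at -0.28 in colon. The enzyme Tm7sf2, with means of 9.20 CPM in duodenum, 6.69 CPM in ileum and 6.57 CPM in colon, also lies to the left of 0.

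The machinery that senses sterol changed in both directions. Of 15 tested genes 3 rose and 3 fell from duodenum to ileum, 5 rose and 4 fell from duodenum to colon, and 5 rose and 3 fell from ileum to colon, with medians of -0.04, -0.06 and 0.05. No test set this list apart from all tested genes, of which 33.8%, 55.0% and 49.2% changed in these comparisons. Without mouse 12, 27, 30 or 32 the number that fell from duodenum to colon was 2 rather than 4. Insig2, the homologue of Insig1, rose by 0.49 ± 0.122 (adjusted p = 0.00136) in ileum over duodenum. Rnf145, a ubiquitin ligase that targets Scap, was lower in ileum (-0.38 ± 0.114, adjusted p = 0.00723) and colon (-0.55 ± 0.115, adjusted p = 6.6e-05) than in duodenum. Tmem41b, an endoplasmic reticulum lipid scramblase, was lower in colon than in duodenum (-0.74 ± 0.143, adjusted p = 2e-05) and ileum (-0.46 ± 0.145, adjusted p = 0.00731). Erlin1, which binds cholesterol in the same membrane, was also lower in colon than in ileum (-0.42 ± 0.120, adjusted p = 0.00308).

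Genes of sterol uptake and traffic also differed in both directions. Of 16, 7 rose and 3 fell from duodenum to ileum, 6 rose and 7 fell from duodenum to colon, and 4 rose and 8 fell from ileum to colon (medians 0.15, -0.05 and -0.15). Of all tested genes 33.8%, 55.0% and 49.2% changed in the same comparisons, and no test set these genes apart. Without mouse 12, 16 or 31 the number that rose from duodenum to ileum was 4 rather than 7, and with library index as a covariate it was 2. Npc1l1, the intestinal cholesterol importer and an enterocyte gene, was at a mean of 223.7 CPM in duodenum, 334.2 in ileum and 4.16 in colon. Its log2 fold change was -5.92 ± 0.321 (adjusted p = 1.2e-19) in colon over duodenum and -6.53 ± 0.328 (adjusted p = 2.1e-20) over ileum. The part of enterocytes in this fall was not tested. Scarb1, the receptor for high density lipoprotein, was lower in ileum (-1.43 ± 0.135, adjusted p = 6.2e-12) and colon (-2.82 ± 0.143, adjusted p = 6.5e-22) than in duodenum. Lipa, the lysosomal acid lipase, was lower in ileum than in duodenum (-1.28 ± 0.226, adjusted p = 1.4e-05). Lrp8, a lipoprotein receptor, and Gramd1b, a carrier of cholesterol from the plasma membrane, were lower in colon than in ileum, at -1.67 ± 0.201 (adjusted p = 1.2e-09) and -1.51 ± 0.105 (adjusted p = 4.2e-17).

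VSG changed none of the 7 genes detectably. Averaged over the 3 regions, edgeR called 0 of 7 members between VSG and S_al (0% of all tested genes), 0 of 7 between VSG and S_wm (0.245% of all genes) and 0 of 7 between S_wm and S_al (0.0529%). The 3 contrasts share samples. Their fit had no term for mouse, so libraries of 1 mouse were counted as independent. The correlation within a mouse was 0.128 by voom, so the intervals below may be too narrow. Srebf2, the most precisely measured member, had a log2 fold change of -0.06 (95% interval -0.20 to 0.08) for VSG over S_al and 0.00 (95% interval -0.14 to 0.13) for VSG over S_wm. By group, its lowest, median and highest values were 131.9, 151.7 and 164.6 CPM in S_al and 102.0, 157.4 and 176.8 CPM in S_wm duodenum, against 134.8, 149.4 and 177.6 CPM in VSG. In colon they were 206.2, 268.8 and 311.6 CPM in S_al, 240.0, 245.7 and 268.0 CPM in S_wm and 215.8, 234.1 and 244.6 CPM in VSG. The groups overlapped in both regions. For Fdft1 the log2 fold changes over S_al and S_wm were -0.04 (95% interval -0.22 to 0.15) and -0.07 (95% interval -0.26 to 0.11), for Sqle -0.11 (95% interval -0.28 to 0.06) and -0.09 (95% interval -0.26 to 0.08). Lss gave -0.07 (95% interval -0.34 to 0.20) and -0.05 (95% interval -0.32 to 0.22). Idi1, with few reads, gave 0.07 (95% interval -0.58 to 0.72) and 0.10 (95% interval -0.55 to 0.75), so that changes of that size were not detectable at this depth.

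**Figure D4:**
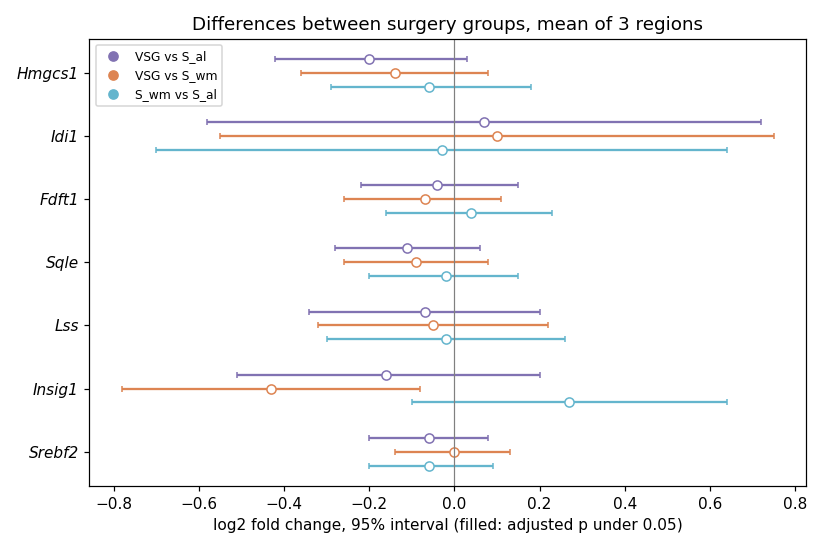
Log2 fold change (horizontal axis) of each member gene between surgery groups, as the mean over the 3 regions, with 95% intervals from the edgeR fit over 48 libraries. The fit had no term for mouse, so libraries of 1 mouse were counted as independent. Open points did not reach an adjusted p under 0.05. No point is filled, and the interval of Insig1 for VSG against S_wm, -0.78 to -0.08, is the one that lies wholly on one side of 0.

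Insig1 and Hmgcs1 came nearest to a difference after surgery. In the S_wm mice Insig1 was at 17.4 to 23.2 CPM in duodenum in 4 mice and at 58.7 CPM in mouse 27. In mice 16, 21, 27, 29 and 31 it was at 14.1, 24.7, 38.9, 21.5 and 16.9 CPM in ileum and at 32.3, 34.7, 56.0, 28.3 and 25.4 CPM in colon. In VSG mice its lowest, median and highest values were 12.6, 23.2 and 23.9 CPM in duodenum and 15.5, 24.9 and 37.7 CPM in colon, and the ileal libraries ran from 13.2 to 25.9 CPM. The groups overlapped in each region, and mouse 27 was highest of its group in all 3. The log2 fold change of VSG over S_wm was -0.43 ± 0.175 (unadjusted p = 0.0184, adjusted p = 0.374). It was -0.28 (adjusted p = 0.566) without the duodenal library of mouse 27 and -0.12 (adjusted p = 0.853) without mouse 27.

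For Hmgcs1 the S_wm ileal libraries lay close together, at 137.1, 142.4, 136.3, 141.7 and 140.0 CPM in the same order of mice. The 6 VSG ileal libraries ran from 81.4 over a median of 105.0 to 138.0 CPM, and the highest, mouse 11, reached into the S_wm range. The log2 fold change was -0.39 ± 0.193 (unadjusted p = 0.0478, adjusted p = 0.776) in ileum, -0.15 ± 0.193 in duodenum and 0.12 ± 0.194 in colon. S_al ileal libraries spread more widely, at 199.8, 84.0, 150.9, 132.4 and 108.8 CPM (mice 12, 13, 19, 24 and 32), and VSG over S_al gave -0.35 ± 0.193 (unadjusted p = 0.0793, adjusted p = 0.872).

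Within single regions no member passed. Of all tested genes, the VSG over S_wm contrast called 0.225% in duodenum, 0.0463% in ileum and 0.0595% in colon, S_wm over S_al called 0% in duodenum and ileum and 0.0132% in colon, and VSG over S_al called 0% in each. Of 84 tests of a member in the 12 surgery contrasts, 2 had an unadjusted p under 0.05 (those of Insig1 and Hmgcs1 above), and DESeq2 also gave 2 such values and no call. The surgery by region interaction gave unadjusted p-values of 0.139 (Sqle) to 0.901 (Lss) for the members and no call among all genes (0%). None of the tested genes of the sterol lists passed in a surgery contrast over regions. Of the 10 enterocyte markers 1 fell in VSG over S_wm over regions (adjusted p = 0.0153), and the part of these cells in the members' values was not tested.

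Within the 9 groups, the enzymes Hmgcs1, Fdft1, Sqle and Lss varied together from library to library, and the other members did so less. After subtraction of the 9 group means from log2 CPM, Pearson's r over 48 libraries was 0.66 between Hmgcs1 and Sqle, 0.61 between Hmgcs1 and Lss, and 0.55 between Hmgcs1 and Fdft1. It was over 0.3 in 12 of the 21 pairs (median 0.37), and in 11 of 21 (median 0.33) without the 3 libraries of mice 12 and 27 named above, a check added after the data were seen. Insig1 and Srebf2 had an r of -0.32, the lowest of the pairs. With the mean of the other 6 members, r was 0.80, 0.65, 0.60 and 0.63 for Hmgcs1, Fdft1, Sqle and Lss. It was 0.22, 0.23 and 0.28 for Idi1, Insig1 and Srebf2. Libraries of one mouse, depth and cell mixture are shared by the points, so these are descriptions without a p. The share of all gene pairs with an r over 0.3 was not computed, so the count of 12 pairs has no background beside it.

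**Figure D5:**
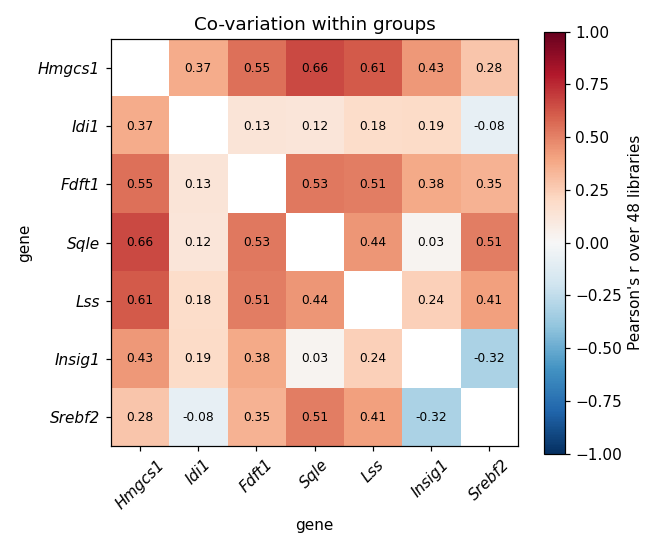
Pearson's r between member genes (both axes) over 48 libraries, of log2 CPM after subtraction of the mean of each of the 9 groups; the colour scale runs from -1 to 1. The enzymes Hmgcs1, Fdft1, Sqle and Lss form a block with r from 0.44 to 0.66, whereas Insig1 and Srebf2 stand at -0.32.

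The genes that varied most like the members were themselves sterol genes. Among 9481 genes with an average of at least 8 CPM, ranked by correlation with the mean standardised deviation of the 7 members, the first 8 places included 4 members (Hmgcs1, Fdft1, Lss and Sqle, which contribute to that mean), Cyp51 (r = 0.78), Msmo1 (r = 0.59) and Aacs (r = 0.58). Cyp51 and Msmo1 demethylate sterols after lanosterol, and Aacs (acetoacetyl-CoA synthetase) supplies the pathway with ketone body carbon. Outside the 6 sterol and lipid lists the most similar genes were Abat (r = 0.54), Cant1 (r = 0.53), Mitd1 (r = 0.51), Exoc6 (r = 0.49), Gtf3c2 (r = 0.49), Asb6 (r = 0.48), Pon3 (r = 0.47) and Upf3a (r = 0.47). Abat degrades the transmitter GABA and Pon3 is a lactonase. Although they contribute to the mean, the members Srebf2 (r = 0.48) and Insig1 (r = 0.43) ranked 16 and 35, below Abat (9) and Cant1 (10). Idi1, at a mean of 1.51 CPM, was not ranked.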

How the data were processed

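RNA was sequenced from FACS-purified Neurod1-lineage cells (DRAQ5 positive, DAPI negative, CD45 negative, EYFP positive) with a stranded total RNA kit and single-end reads, and the authors deposited raw counts per gene, made with STAR (2.5.1, per the submitters' processing notes) on GRCm38. Whether counting used strand or kept multiply mapped reads is not given in the sources used here.

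From the deposited counts, genes with low counts were removed (filterByExpr), TMM scaling was applied and a model with 9 groups (3 surgery groups in 3 regions) was fitted by edgeR 4.0.16 (glmQLFit, glmQLFTest, robust) in R 4.3.3. All 48 libraries shared 1 estimate of the spread (common biological coefficient of variation 0.302). Benjamini-Hochberg adjustment ran over all 15126 tested genes, with a threshold of 0.05. The study's methods used DESeq2, which is an alternative here (1.42.0). CPM values use the same scaling, with a prior count of 2 for log2 CPM. Fold changes are log2, and 95% intervals come from the quasi-likelihood t distribution. Depth limits precision by counting error and the replicate spread is included in each SE. Gene coordinates and exon lengths came from GENCODE M21 (53360 of 53465 genes matched).

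Named genes were the 7 members, the up to 3 list genes with the largest called change in each regional comparison, list genes called in a surgery contrast (none over regions) and the 8 unlisted genes most correlated with the members. Some genes that this rule names are not reported here, though they stay in the counts and medians of their lists. Members and lists were chosen with earlier results of these data known. Libraries of 1 mouse share a number, so regions are paired by animal: deviations from group means over the 2000 most variable genes had a median correlation of 0.111 over 46 pairs (-0.070 to 0.391, 25 over 0.1). No 2 libraries of a group agreed within sampling noise (lowest chi-square per gene 8.14 over 105 pairs). Alternatives were another scaling, DESeq2, no filter or a stricter filter, mouse as a block (limma 3.58.1 voom for surgery), leaving out each mouse, leaving out libraries of mice 12 or 27, library index, and region-wise fits. The edgeR, DESeq2 and voom fits were tested on simulated counts, for colon over duodenum or VSG over S_al.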

Additional observations from a re-analysis of the deposited data

Results flagged for a closer look

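Among 63 combinations of a member gene and a group of 5 or 6 mice, 2 had a library set apart from the rest of its group by Dixon's criterion at 95%, which chance alone meets in about 1 in 20 groups. Both came from the duodenal library of mouse 27 in the S_wm group. Insig1 was at 58.7 CPM there, against 17.4 to 23.2 CPM in the other 4 mice. Sqle was at 29.5 CPM, against 57.7 to 63.0 CPM in the others. The same library had the highest enterocyte marker sum (52427.4 CPM) and the lowest enteroendocrine marker sum (12186.3 CPM) of the duodenal libraries. Insig1 was also high in the ileum (38.9 CPM) and colon (56.0 CPM) of that mouse. The enterocyte sums there, 9978.5 and 763.4 CPM, lay inside the range of the other mice. Its colonocyte sums, 419.1 CPM in ileum and 2917.8 CPM in colon, were the highest of the S_wm group in each region. So was its colonic goblet sum (13508.2 CPM). Its colonic enteroendocrine sum was 31456.8 CPM, where colonic libraries ran from 29557.5 to 99882.4 CPM. The part of other cell types in these values was not tested.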

How the results depend on the processing

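The 7 members were recomputed under 25 alternatives (24 for Idi1) for each contrast over regions and up to 26 within a region. No member passed in any surgery contrast or in the interaction under any of them, with lowest and highest counts of 0 when each mouse was left out. In the regional comparisons 7 of 15 calls held under every alternative, among them all 3 of Fdft1 and of Srebf2. Members passing were 4, 6 and 5 (ileum over duodenum, colon over duodenum, colon over ileum), 3, 5 and 5 with the replicate block, and 2 to 5, 4 to 6 and 4 to 5 when each mouse was left out. The 2 arose without mouse 12. With library index as a covariate colon over duodenum gave 2 and colon over ileum 3. In that fit Insig1 reversed to -0.15 in colon over duodenum (adjusted p = 0.808), and the cause was not tested. Without the duodenal library of mouse 27 Insig1 became 0.07 in ileum over duodenum, and leaving out mice gave -0.15 to 0.01. Idi1 in colon over ileum ran from -0.32 to 0.03.

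Signs of uncalled surgery differences turned in 42 of 522 values. For VSG over S_al, Fdft1 and Lss became 0.04 without the ileal and colonic libraries of mouse 12, and Insig1 became 0.01 with library index. Leaving out mice gave -0.14 to 0.27 for Idi1, -0.10 to 0.03 for Fdft1 and -0.15 to 0.00 for Lss. For VSG over S_wm it gave -0.01 to 0.26 for Idi1, -0.15 to 0.01 for Lss and -0.07 to 0.03 for Srebf2. For S_wm over S_al it gave -0.11 to 0.01 for Hmgcs1, -0.07 to 0.04 for Sqle, -0.24 to 0.17 for Idi1, -0.03 to 0.10 for Fdft1, -0.07 to 0.06 for Lss and -0.04 to 0.39 for Insig1. There, the ileal and colonic libraries of mouse 12 left out gave 0.00 for Hmgcs1, 0.02 for Sqle, 0.13 for Idi1 and 0.09 for Lss. The replicate block gave 0.08 for Idi1 and 0.03 for Lss, library index 0.09 for Idi1, and the duodenal library of mouse 27 left out 0.03 for Sqle and 0.00 for Lss. The block changed no call other than those of Idi1.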

Other observations

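Fatty acid genes driven by SREBP1, the sister factor of SREBP2, differed between regions in both directions. Of 15 tested genes 8 rose and 3 fell from duodenum to ileum, 10 rose and 5 fell from duodenum to colon, and 7 rose and 2 fell from ileum to colon, with median log2 fold changes of 0.27, 0.47 and 0.26. Of all tested genes 17.2% rose and 16.6% fell in the first comparison, 26.8% and 28.3% in the second, and 23.8% and 25.4% in the third. Without mouse 12, 5 rather than 8 genes rose from duodenum to ileum, and with library index as a covariate 4 did. Scd2, a stearoyl-CoA desaturase, rose from a mean of 12.2 CPM in duodenum to 55.1 in ileum and 207.5 in colon, a log2 fold change of 2.21 ± 0.174 (adjusted p = 6.1e-14) in ileum and 4.13 ± 0.185 (adjusted p = 3.5e-23) in colon over duodenum by edgeR's quasi-likelihood test. Scd1, its paralogue, rose by 4.52 ± 0.455 (adjusted p = 9.8e-12) from duodenum to colon and 1.73 ± 0.478 (adjusted p = 0.00401) to ileum. Acss2, which makes acetyl-CoA from acetate, rose by 1.88 ± 0.109 (adjusted p = 2.3e-20) from duodenum to colon and 1.53 ± 0.108 (adjusted p = 5e-17) from ileum to colon. Me1, a malic enzyme, was lower in ileum than in duodenum (-1.06 ± 0.221, adjusted p = 0.00014).

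Several genes of sterol efflux and esterification were lower in colon. Of 11 genes of the LXR list 2 rose and 3 fell from duodenum to ileum, and 1 rose and 7 fell both from duodenum and from ileum to colon, with medians of -0.14, -0.80 and -0.39, against the same shares of all tested genes. Without mouse 27, 4 rather than 2 rose from duodenum to ileum. The Abcg5 and Abcg8 half-transporters, which return sterols to the lumen, fell from means of 59.4 and 67.7 CPM in duodenum to 2.80 and 2.59 in colon (log2 fold change -4.46 ± 0.330, adjusted p = 2.7e-15, and -4.77 ± 0.337, adjusted p = 7.1e-16). Soat2, which esterifies absorbed cholesterol, fell from 30.1 to 1.77 CPM (-4.02 ± 0.324, adjusted p = 2.7e-14). These are also genes of absorptive enterocytes, whose 10 markers all fell in colon, from sums of 6477.1 to 52427.4 CPM in duodenum to 665.9 to 1177.3 CPM. The part of these cells in the falls was not tested. Apoe (-1.26 ± 0.414, adjusted p = 0.0148), Abcg1 (-0.48 ± 0.154, adjusted p = 0.0137) and Abca1 (-0.41 ± 0.149, adjusted p = 0.0286) were lower in ileum than in duodenum. Apoe was near the floor, at means of 0.915 CPM in ileum and 2.17 CPM in duodenum. The medians of Abca1 were 63.0 CPM in ileum and 70.5 CPM in duodenum, where its highest library was at 250.3 CPM. Of 8 genes of the isoprenoid branch 0 rose and 2 fell in ileum over duodenum, 2 rose and 1 fell in colon over duodenum, and 1 rose and 1 fell in colon over ileum. The shares of all tested genes were the same as for the LXR list. Nus1, of the dolichol enzyme, fell by 0.31 in ileum (SE 0.0697, adjusted p = 0.00045) and by 0.47 in colon (SE 0.0698, adjusted p = 1.2e-07) on the log2 scale. Pggt1b was at -0.31 ± 0.112 (adjusted p = 0.0288) in ileum, Pdss2 at 0.41 ± 0.132 (adjusted p = 0.00727) and Fntb at 0.45 ± 0.115 (adjusted p = 0.00073) in colon, over duodenum, and Pdss1 at -0.60 ± 0.183 (adjusted p = 0.00505) in colon over ileum.

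The members' deviations were most extreme in single libraries. The mean standardised deviation of the 7 genes was highest in the ileal library of mouse 12 (S_al, 1.93, with 7 of 7 genes above the group mean), the library with the lowest enteroendocrine and the highest goblet and colonocyte marker sums of the ileum, whose part in this value was not tested. In the duodenum and colon of mouse 12 it was -0.05 and 0.25. Next came the ileal and colonic libraries of mouse 11 (VSG, 1.32 and 1.11), whose duodenal library was also high (0.64). It was lowest in the colon of mouse 19 (S_al, -1.69) and the ileum of mouse 13 (S_al, -1.35), which was at 0.30 and 0.32 in duodenum and colon.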
